A study of Homo sapiens with 8 samples.

Results

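Genes of the non-neuroendocrine and mesenchymal state were examined in the human small cell lung cancer line NCI-H69 after knockdown of CSNK2B, the regulatory beta subunit of casein kinase 2. The group held 34 of 20037 protein-coding genes, and its regions were those in the deposited tables that overlapped a member's RefSeq span (GRCh38) or the 3000 bp on either side. By this rule 63 of 35154 RBBP4 regions and 14 of 20496 P300 regions belonged to the group. Cells were transfected with siRNA against CSNK2B or with non-targeting siRNA, and chromatin fixed with 1% formaldehyde was taken 48 h later from both arms. It was immunoprecipitated for RBBP4, a histone-binding subunit of deacetylase, Polycomb and chromatin assembly complexes, or for P300, a histone acetyltransferase. Each antibody and arm had 1 immunoprecipitated library, so no difference had a replicate check, and the matched input libraries were not used here. The level of CSNK2B itself cannot be read from these files, so the knockdown was not checked.

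Small cell lung cancer cells are mostly neuroendocrine, with neuronal transcription factors and secretory granules. A less common non-neuroendocrine state has vimentin filaments, caveolae, annexins, receptor kinases such as AXL and active TGF-beta signalling, and REST, a repressor of neuronal genes, is active in it. TGF-beta ligands bind paired receptors that phosphorylate SMAD3, and the ZEB and SNAI factors downstream repress epithelial genes. These data measured occupancy and not expression, so the state of the cells could not be read from them.

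Each table listed only regions with an unadjusted p below 0.05 in the authors' deposited table, and a region's name gave the arm of its peak, which was also the arm with the higher density in 35151 of 35154 RBBP4 and 20496 of 20496 P300 regions. Absence of a gene from a table therefore says nothing about whether its occupancy was stable. Reads were recovered from the deposited RPKM. The scaling totals of the RPKM, taken as the reads in all tested regions, were 1207945 for RBBP4 knockdown, 833181 for RBBP4 control, 946392 for P300 knockdown and 1092789 for P300 control. Folds below are ratios of reads scaled to these totals, with 95% exact binomial (Clopper-Pearson) intervals for counting error alone. The authors' log2 fold change was taken to be scaled to whole libraries. At regions with many reads, its RBBP4 ratios of knockdown to control were higher than these by a median factor of 1.48. Its P300 ratios were lower by a median factor of 1.36. The factor varied between single regions. A region is termed called where its adjusted p in the authors' deposited table was below 0.05, which compares 2 libraries and not the conditions. Column names alone gave the arms, so every direction rests on them.

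RBBP4 read density was higher after knockdown at 56 of the 63 RBBP4 regions of the group and lower at 7. Regions at the vimentin, annexin A2, SMAD3, MET, caveolin 1 and AHNAK genes held the most reads. Among the 34 members, 22 had a higher region, against 46.5% of protein-coding genes, 6 had a lower one, against 14.8%, and 5 of these had both. Over all listed RBBP4 regions 24180 were higher and 10974 lower, which is 25.4% and 11.5% of the 95329 tested. A called higher region lay at 21 members (61.8%), against a background of 38.3% of protein-coding genes. A called lower region lay at 3 members (8.82%), against 5.60%. In regions, 44 member regions were called higher and 4 called lower, which is 78.6% and 57.1% of the listed member regions in each direction. Over all listed regions the shares were 70.3% and 28.6%, and over all tested regions 17.8% and 3.30%, a base that includes unlisted regions and is not matched to the members. With a dispersion of 0.04 between libraries, CD44, FOSL1 and TGFB2 had no called higher region, TGFBI and RAB27B no called lower one, and the counts of members became 18 and 1. No share of protein-coding genes was computed at that dispersion, so these 2 counts have no background. The median log2 ratio of RPKM, with a pseudocount of 1, was 2.11 over the 63 regions and 1.49 over all listed regions, and among higher regions alone it was 2.21 against 1.86.

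Longer genes had more room for a region, and members were somewhat longer than other genes, with a median of 29839 bp against 24115 bp. Among members under 20 kb, 5 of 13 had a called higher region, against 27.5% of protein-coding genes of that length. Between 20 and 100 kb the count was 8 of 13, against 41.0%. Above 100 kb it was 8 of 8, against 61.6%. The member share was the larger in each length band, in counts too small to rank the bands. A called lower region lay at 1 member in each band, against 0.820%, 4.62% and 20.7% of protein-coding genes from the shortest band to the longest.

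**Figure D1:**
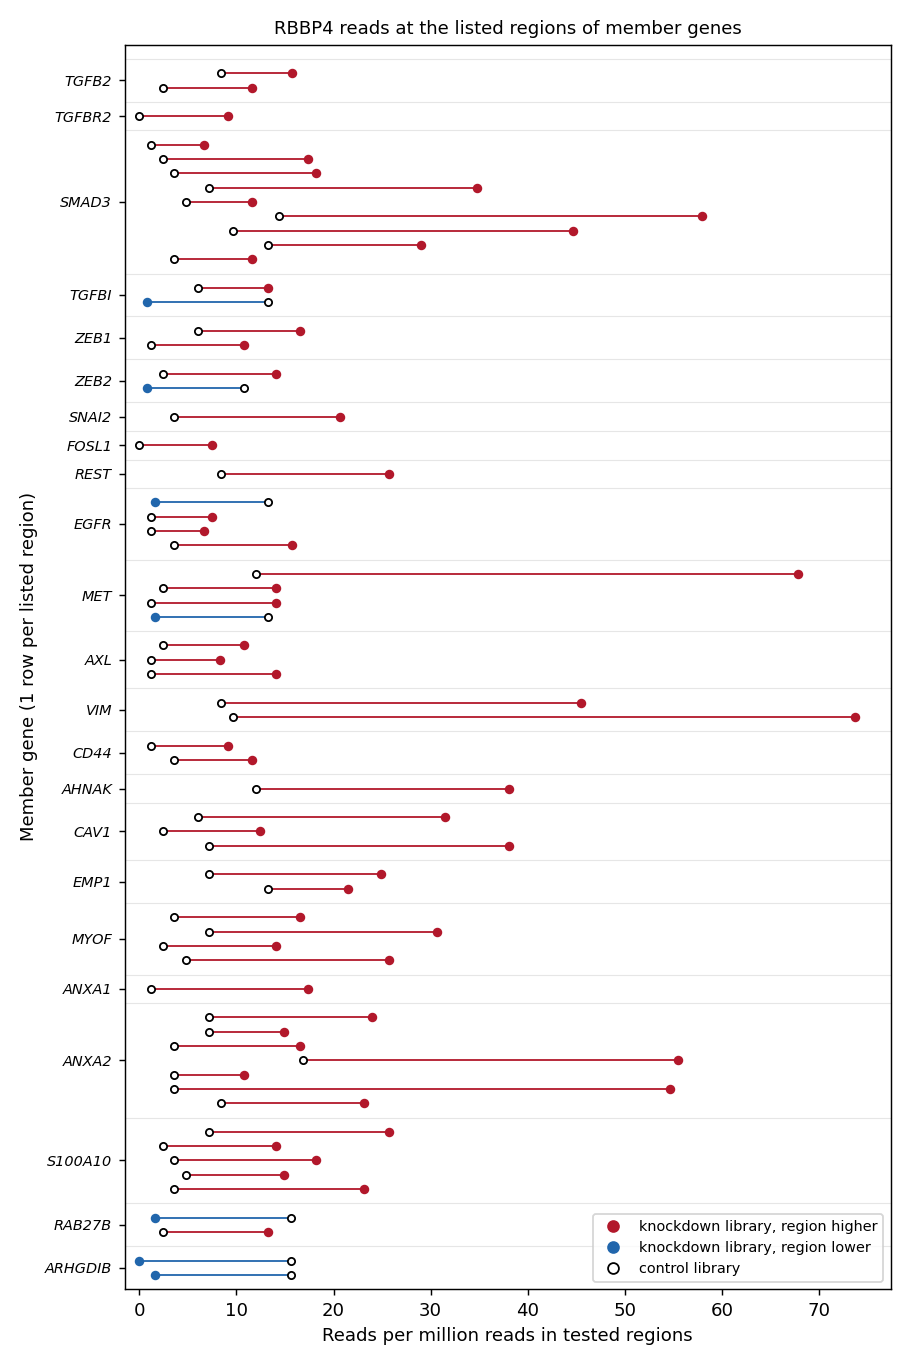
RBBP4 reads, scaled to the reads in tested regions of each library, at each of the 63 listed regions of 23 member genes, 1 row per region, ordered by role and, within a gene, with coordinates ascending upward. Filled points are the knockdown library (red where higher, blue where lower) and open points the control library; the 56 higher regions include the widest gaps, at VIM, MET, SMAD3 and ANXA2, and the 7 lower ones all have 0 to 2 knockdown reads.

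RBBP4 regions overlapped promoter windows, from 250 bases before to 50 after an annotated start, at 12 of the 30 members that have one in the RefSeq table. The background was 28.3% of 15843 protein-coding genes for higher regions and 0.0757% for lower regions. Members had more windows per gene, 59 for 30 genes against 22199 for 15843, so more chances of an overlap. All 12 members had a window overlapped by a higher region, and no member had one overlapped by a lower region. The 250 bases upstream of the start are shown for VIM, CAV1, EMP1 and MYOF, where a higher RBBP4 region covered the whole window at the outer start of the gene, (SMAD3, AHNAK and REST, also covered, have the window inside the gene span and are not shown), and for CD44, chosen after its values were seen because a lower P300 region covered the stretch and a higher RBBP4 region began just beyond it. Sequences are from RefSeq GRCh38.p14 and read 5′ to 3′ on the strand of the gene, and capitals mark matches on either strand to CAGGTG (E-box of ZEB and SNAI factors), TGANTCA (AP-1), GGGCGG (GC box), CCAAT and TGACGTCA (cyclic AMP response element).
VIM, chr10:17227991-17228240, plus strand: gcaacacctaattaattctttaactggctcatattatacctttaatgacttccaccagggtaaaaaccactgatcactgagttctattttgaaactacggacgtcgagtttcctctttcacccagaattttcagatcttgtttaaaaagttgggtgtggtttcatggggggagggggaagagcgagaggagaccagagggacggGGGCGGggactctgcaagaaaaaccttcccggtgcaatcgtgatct
CAV1, chr7:116524759-116525008, plus strand: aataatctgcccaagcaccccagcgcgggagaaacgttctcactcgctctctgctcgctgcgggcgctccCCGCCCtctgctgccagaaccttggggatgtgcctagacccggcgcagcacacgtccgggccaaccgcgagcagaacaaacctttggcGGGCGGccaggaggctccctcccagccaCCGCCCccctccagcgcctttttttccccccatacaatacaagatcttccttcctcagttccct
EMP1, chr12:13196476-13196725, plus strand: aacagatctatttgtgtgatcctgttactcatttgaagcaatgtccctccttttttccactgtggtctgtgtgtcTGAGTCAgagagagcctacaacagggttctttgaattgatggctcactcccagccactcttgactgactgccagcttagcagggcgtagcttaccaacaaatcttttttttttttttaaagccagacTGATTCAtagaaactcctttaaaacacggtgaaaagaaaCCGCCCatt
MYOF, chr10:93482335-93482584, minus strand: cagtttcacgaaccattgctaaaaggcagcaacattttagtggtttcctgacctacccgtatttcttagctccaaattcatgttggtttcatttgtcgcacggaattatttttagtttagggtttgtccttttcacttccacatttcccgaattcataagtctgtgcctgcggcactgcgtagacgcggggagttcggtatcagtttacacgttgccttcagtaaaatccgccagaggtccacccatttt
CD44, chr11:35138921-35139170, plus strand: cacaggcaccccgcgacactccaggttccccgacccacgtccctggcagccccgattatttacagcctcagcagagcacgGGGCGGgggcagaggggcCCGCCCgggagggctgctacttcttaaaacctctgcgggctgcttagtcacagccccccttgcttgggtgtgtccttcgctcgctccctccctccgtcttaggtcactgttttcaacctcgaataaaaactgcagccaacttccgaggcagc
The sequences differ in composition, with 8 CpG in the VIM stretch, 18 in CAV1, 3 in EMP1, 12 in MYOF and 15 in CD44, where the median of 22199 protein-coding windows was 16. A GC box was present at VIM, CAV1, EMP1 and CD44, and in 53.7% of all windows. EMP1 held 2 AP-1 matches, a motif present in 5.36% of windows. No match to the E-box, present in 17.0% of all windows, was found in these 5 stretches. The CCAAT box (32.7%) and the cyclic AMP response element (2.01%) had none either. Among all 12 members with an overlapped window, counted in 1 window each, 1 had an E-box (ZEB1) and 1 a CCAAT box (ANXA1). Of the same 12, 2 had an AP-1 match and 8 a GC box. In these 5 stretches no match overlapped another, and a match describes letters only.

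TGF-beta signalling was represented by 6 members, of which 4 had RBBP4 regions and TGFB1 and TGFBR1 had none. At TGFB2, a TGF-beta ligand, a region at chr1:218344947-218345319 ended 17 bp upstream of the gene and held 14 reads after knockdown against 2, a fold of 4.83 (1.11 to 43.8). It also overlaps the antisense transcript TGFB2-AS1, from which it could not be told apart. A second TGFB2 region near the far end, with 19 reads against 7, was not called. TGFBR2, the type II receptor, had 11 reads against 0 inside the gene at chr3:30655378-30655686, 2.53-fold higher with the control set at 3 reads (exact lower limit 1.73).

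SMAD3, the receptor-activated transcription factor of the pathway, had 9 RBBP4 regions, more than any other member, and all 9 were higher. Together they held 280 reads after knockdown and 50 in the control, a sum over regions that were each listed because the libraries differed there. The region with most reads, chr15:67098016-67099012, is centred 32912 bp into the gene and covers the promoter window of an internal start, with 70 reads against 12 (4.02-fold, 2.16 to 8.16). Upstream of it lay regions with 54 against 8 (4.66-fold, 2.202 to 11.3) and 35 against 11 reads (2.19-fold, 1.09 to 4.79). Downstream, 42 reads against 6 (4.83-fold, 2.04 to 13.9), 22 against 3 (5.06-fold, 1.52 to 26.4) and 21 against 2 (7.24-fold, 1.77 to 63.7) were called as well. The other 3 SMAD3 regions, with 8 to 14 knockdown reads, were not called. The outer start of the gene had no listed region.

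TGFBI, a secreted matrix protein named for its induction by TGF-beta, went in both directions. A region 3306 bp inside the gene at chr5:136032294-136032815 held 1 read after knockdown against 11, a 15.9-fold lower density (2.32 to 686). A region near the far end held 16 reads against 5 and was not called.

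All 5 transcription factor members had an RBBP4 region, and each had a called higher one. ZEB1, a repressor of epithelial genes, had 13 reads against 1 at chr10:31318918-31319175 (8.97-fold, 1.35 to 381) and 20 against 5 at chr10:31320185-31320682 (2.76-fold, 1.005 to 9.41), centred 629 and 2016 bp inside its 5′ end and both over ZEB1-AS1. ZEB2, its paralogue, had 17 reads against 2 at chr2:144517163-144517764, centred 2656 bp inside the 5′ end (5.86-fold, 1.39 to 52.3). A region deep inside ZEB2 was lower, with 1 read against 9, and was not called. SNAI2, encoding the repressor Slug, had 25 reads against 3 at chr8:48921561-48922111, 132 bp outside an end of the gene (5.75-fold, 1.75 to 29.7), in an interval shared with a long noncoding RNA gene. FOSL1, an AP-1 subunit, had 9 reads against 0 inside the gene, 2.07-fold higher with the control at 3 reads (exact lower limit 1.36). That region is also within 3000 bp of CCDC85B. REST had 31 reads against 7 at chr4:56908032-56910170 (3.05-fold, 1.32 to 8.22). By its deposited interval that region starts 132 bp inside the gene and covers the window of an internal start. Its RPKM and deposited width did not give whole reads, so its reads were taken from regions with the same deposited log2 values. All 6 higher regions of these factors lay within 3000 bp of an end of the gene, and the lower ZEB2 region was 61389 bp from the nearest end.

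The receptor kinases had 11 RBBP4 regions at 3 of 4 members, with none at EPHA2, an ephrin receptor. MET, the hepatocyte growth factor receptor, had 82 reads against 10 at chr7:116777344-116778651, centred 105801 bp into the gene (5.66-fold, 2.92 to 12.2). Its neighbour at chr7:116776589-116776846 held 17 against 2 (5.86-fold, 1.39 to 52.3), and a region centred 51895 bp into the gene 17 against 1 (11.7-fold, 1.84 to 490). Closer to the 5′ end of MET, at 5309 bp and over the long noncoding RNA gene COMETT, RBBP4 was lower, with 2 reads against 11 (7.97-fold, 1.74 to 74.0), and not called. The 3 higher MET regions were all called, and the lower one lay nearest the start.

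EGFR, the epidermal growth factor receptor, had 4 regions and 1 call. That region, centred 67454 bp into the gene at chr7:55086204-55086738, held 19 reads against 3 (4.37-fold, 1.29 to 23.05). Regions with 8 and 9 reads against 1 were higher but not called, and the last, near the far end, was lower with 2 against 11. AXL, a receptor of the TAM family linked to drug tolerance, had 17 reads against 1 at chr19:41225992-41226425, centred 6985 bp into the gene (11.7-fold, 1.84 to 490). Beyond its far end a region with 13 against 2 (4.48-fold, 1.02 to 40.9) and one with 10 against 1, not called, also lie in HNRNPUL1 and cannot be assigned to AXL.

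Genes of the cytoskeleton, membrane and adhesion carried the largest share of the reads. They had 27 RBBP4 regions at 9 of 12 members, all 27 were higher, and 23 were called. CAV2, S100A16 and LGALS3 had none. VIM, the intermediate filament protein vimentin, had the deepest region of the group at chr10:17227433-17229127, over the promoter shown above, with 89 reads against 8 (7.67-fold, 3.73 to 18.3) and 2.27e-11 as its adjusted p in the authors' deposited table. A second region centred 2216 bp inside the gene held 55 reads against 7 (5.42-fold, 2.46 to 14.1). Both also overlap VIM-AS1.

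CAV1, the scaffold protein of caveolae, had 3 called regions around and upstream of its start. The one over the promoter shown above, chr7:116524568-116525391, held 38 reads against 5 (5.24-fold, 2.06 to 17.1). Upstream regions ending 1358 and 2294 bp before the start held 15 against 2 (5.17-fold, 1.20 to 46.6) and 46 against 6 reads (5.29-fold, 2.25 to 15.2). The 3 folds lay within 5.17 to 5.29.

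EMP1, an epithelial membrane protein, had 30 reads against 6 over its promoter at chr12:13196239-13196914 (3.45-fold, 1.41 to 10.1), and 26 against 11 in a region that ends 2607 bp upstream and was not called. AHNAK, a very large scaffold protein under the plasma membrane, had 46 reads against 10 at chr11:62545354-62546862, over its 5′ end (3.17-fold, 1.58 to 7.05). MYOF, a ferlin of membrane repair, had 20 against 3 over the promoter shown above at chr10:93482226-93482632 (4.60-fold, 1.36 to 24.2). Inside MYOF, regions centred 16099, 23422 and 162331 bp from the 5′ end held 37 against 6 (4.25-fold, 1.78 to 12.3), 17 against 2 (5.86-fold, 1.39 to 52.3) and 31 against 4 reads (5.35-fold, 1.89 to 20.8). All 4 MYOF regions were called and higher.

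Both annexin members had called higher regions. ANXA1, a calcium-dependent phospholipid-binding protein, had 21 reads against 1 at its start, chr9:73151841-73152098 (14.5-fold, 2.33 to 599). ANXA2, partner of S100A10 in a membrane-bound complex, had 7 regions inside the gene, all higher, with 241 reads against 42 in sum. The most uneven was chr15:60370932-60371815 with 66 against 3 (15.2-fold, 4.97 to 75.5) and 4.23e-11 as its adjusted p in the authors' deposited table, and the deepest chr15:60374509-60375692 with 67 against 14 (3.30-fold, 1.84 to 6.36). Called as well were regions with 28 against 7 (2.76-fold, 1.18 to 7.48), 20 against 3 (4.60-fold, 1.36 to 24.2) and 29 against 6 reads (3.33-fold, 1.36 to 9.82). The remaining ANXA2 regions, 13 against 3 and 18 against 6, were not. None of the 7 lay within 3000 bp of an end of the gene.

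S100A10, a calcium-insensitive S100 protein, had 5 called regions, all higher. Around its start lay 22 reads against 3 (5.06-fold, 1.52 to 26.4), 17 against 2 (5.86-fold, 1.39 to 52.3) and 31 against 6 (3.56-fold, 1.46 to 10.4). In the gene lay 18 against 4 (3.10-fold, 1.02 to 12.6), and beyond the far end 28 against 3 (6.44-fold, 1.99 to 33.1). CD44, the hyaluronan receptor, had 14 reads against 3 just inside its start at chr11:35139198-35139639, not called, and 11 against 1 inside the gene (7.59-fold, 1.10 to 327).

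**Figure D2:**
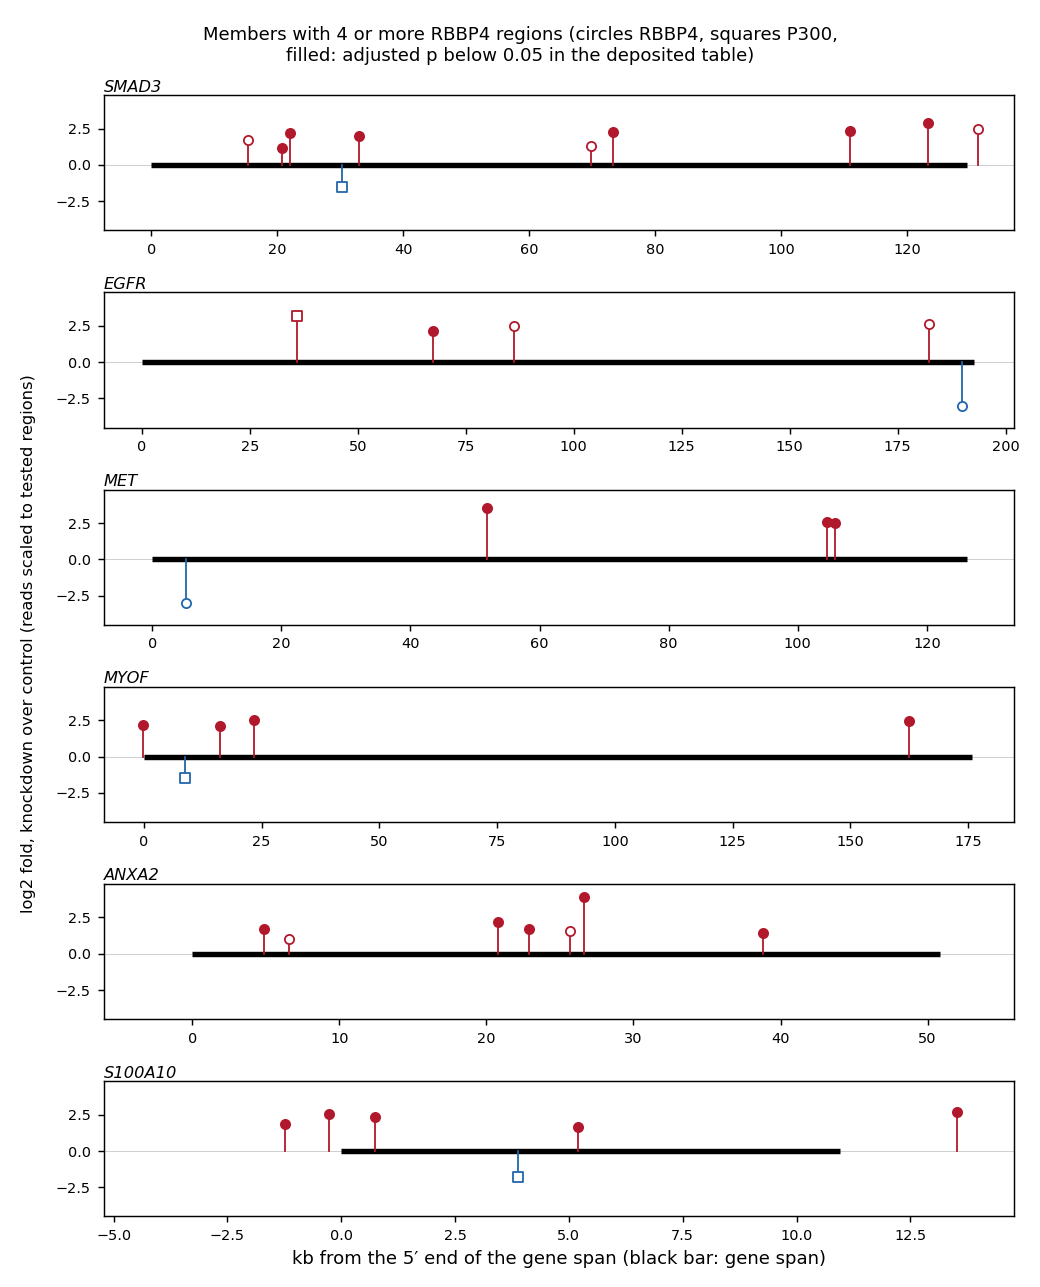
Position (kb from the 5′ end) and log2 fold of knockdown over control, from reads scaled to tested regions, for listed regions of the 6 members with at least 4 RBBP4 regions. Circles are RBBP4 and squares P300, filled where called; RBBP4 regions are higher throughout SMAD3, MYOF, ANXA2 and S100A10, while EGFR and MET each have 1 lower region.

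The other signature genes were the exception to the predominance of higher regions. Of 7 such members only RAB27B and ARHGDIB had RBBP4 regions, 1 higher and 3 lower. ARHGDIB was the only member with lower regions alone. It had 0 reads against 13 inside the gene at chr12:14947002-14947448, 6.28-fold lower with the knockdown at 3 reads (exact lower limit 4.42). A second region at its far end, chr12:14941871-14942487, had 2 against 13 (9.42-fold, 2.13 to 86.0). RAB27B, a GTPase of vesicle secretion, had 16 reads against 2 at chr18:54783106-54783507 (5.52-fold, 1.30 to 49.5) and 2 against 13 at chr18:54834185-54834525 (9.42-fold lower, 2.13 to 86.0) in the same gene. SLC16A5, PLAU, PTGES, IFITM2 and IFITM3 had no listed RBBP4 region.

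Lower member regions were shallow. They held 10 to 15 reads over both libraries, with a median of 13 and 0 to 2 in the knockdown library, whereas higher member regions held a median of 23 and up to 97. Over all listed RBBP4 regions the medians were alike, at 13 for lower and 24 for higher. No lower member region reached 20 reads, and 34 of the 56 higher ones did. Lower regions had a median width of 385 bp and higher ones 500.5 bp, against 371 and 476 bp over all listed regions. Of the higher member regions 26 lay within 3000 bp of an end of the member and 30 farther inside, and of the lower ones 2 and 5.

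Related gene lists were counted in the same way. Of 22 further TGF-beta pathway genes, 17 had a called higher and 1 a called lower RBBP4 region (77.3% and 4.55%), but these genes were longer, with a median of 58953.5 bp. The shares of all protein-coding genes were 38.3% and 5.60%. Between 20 and 100 kb they were 41.0% and 4.62%, and above 100 kb 61.6% and 20.7%. LTBP1, which stores latent TGF-beta in the matrix, had 136 reads against 15 (6.25-fold, 3.66 to 11.5), TGFBR3, a co-receptor, 97 against 21 (3.19-fold, 1.97 to 5.38) and SMAD2 92 against 20 (3.17-fold, 1.94 to 5.43). LTBP1 also had the only called lower region of the list, 2 reads against 15. The list of 25 mesenchymal transition genes held epithelial genes, such as CDH1, EPCAM and GRHL2, beside mesenchymal ones. Of these 25, 14 had a called higher and 2 a called lower region (56.0% and 8.00%), against 38.3% and 5.60% of all protein-coding genes. The epithelial and mesenchymal genes were not counted apart. The count of 14 fell to 6 without the 3000 bp flanks, for which no share of protein-coding genes was computed. MMP14, a membrane-bound metalloproteinase, had 145 reads against 13 (7.69-fold, 4.36 to 14.8). CDH1, the epithelial cadherin, had a called lower region with 0 against 11, 5.32-fold lower with the knockdown at 3 reads (exact lower limit 3.64). The lower region with most reads was at a mesenchymal gene, FN1, with 3 against 12 (5.80-fold, 1.57 to 32.0), and was not called.

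Among 12 AP-1 and ETS factors 10 had a called higher region, with JUNB at 171 reads against 33 (3.57-fold, 2.45 to 5.36), FOS at 100 against 10 (6.90-fold, 3.60 to 14.8) and JUN at 92 against 4 (15.9-fold, 5.99 to 59.5). A called lower region lay at 1 of the 12, ETS2, with 1 against 11 (15.9-fold, 2.32 to 686). Of 6 further non-neuroendocrine signature genes 4 had a called higher and 0 a called lower region, including CCND1 with 47 against 10, YAP1 with 26 against 1 and CCN1 with 25 against 0. Annexin, S100 and caveola partners had a called higher region at 8 of 16, with ANXA4 at 171 against 26 (4.54-fold, 2.99 to 7.14). ANXA4 was also the 1 gene of the 16 with a called lower region, 4 against 19 (6.89-fold, 2.29 to 27.8). Neuroendocrine markers had a called higher region at 7 of 20 (35.0%), against 38.3% of all protein-coding genes and 27.5% of those under 20 kb. The median length in the list was 12500.5 bp, and 2 of 20 had a called lower region. SEZ6 had 60 reads against 5 (8.28-fold, 3.36 to 26.4), RTN1 61 against 14 (3.01-fold, 1.66 to 5.82) and ENO2 46 against 7 (4.53-fold, 2.03 to 11.9). In this list 31 of 40 regions were higher and 9 lower. That list included POU2F3, which marks the tuft-like subtype and not neuroendocrine cells. A called higher region lay at 6 of 7 fibroblast markers and 0 of 6 T cell markers, and a called lower one at 0 genes of either list. The share of fibroblast markers was the highest of the lists, with COL1A1 at 50 against 7 reads, so a high share was not particular to the non-neuroendocrine members. Differences between lists were not tested.

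**Figure D3:**
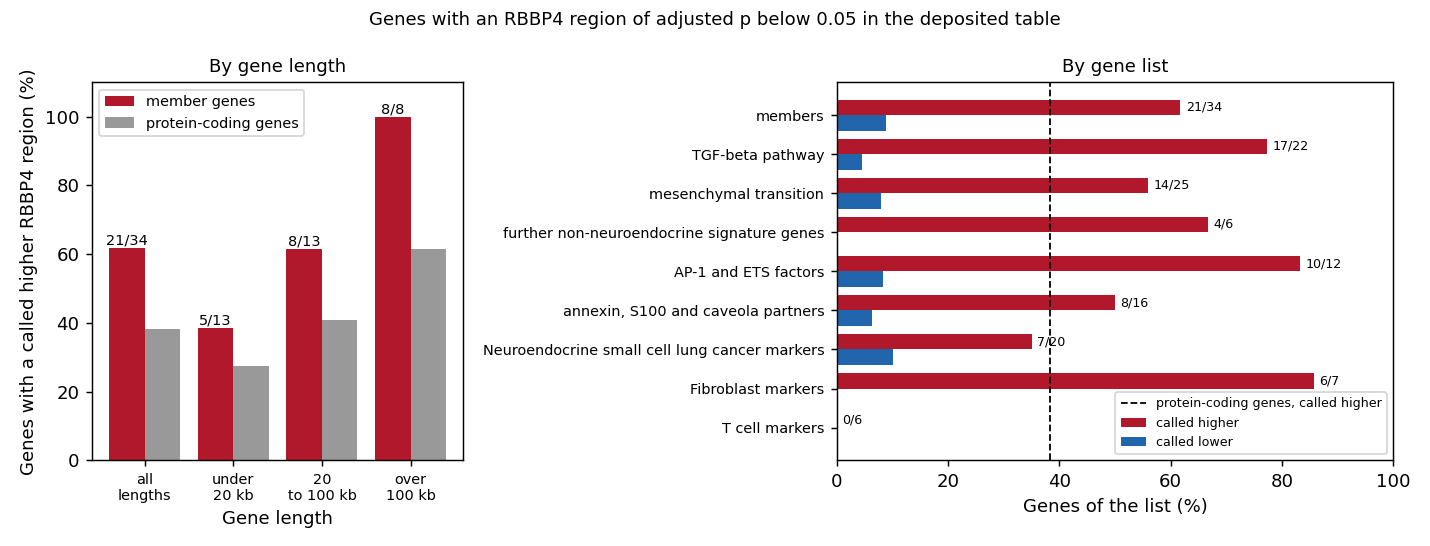
Left, percent of genes with a called higher RBBP4 region by gene length, for member genes (red, counts above the bars) and all protein-coding genes (grey). Right, percent of each gene list with a called higher (red) or called lower (blue) region; the dashed line is the 38.3% of all protein-coding genes, and members reach 61.8%.

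P300 gave few regions at these genes and no call. Of the 34 members 5 had a listed higher P300 region, against a background of 11.5% of protein-coding genes, and 7 a listed lower one, against 17.7%, so the member counts were near the background. Over all regions 5.31% of the tested regions, at least 134012, were listed higher and 9.98% listed lower. The lowest adjusted p in the authors' deposited table was 0.260, so 0% of tested regions were called in either direction, although every listed region had an unadjusted p below 0.05. Over the 14 member regions the median log2 ratio of RPKM was -1.32, and over all listed P300 regions it was -1.70. Over the 4 member regions with at least 20 reads it was 0.54.

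ZEB2 and AXL had the higher P300 regions with most reads. At ZEB2, chr2:144517015-144517561 held 34 reads after knockdown against 9 (4.36-fold, 2.05 to 10.3). At AXL, chr19:41220341-41220699, centred 1297 bp inside the gene, held 26 against 9 (3.34-fold, 1.51 to 8.09). EGFR had 16 against 2 centred 35888 bp into the gene, SLC16A5 12 against 1 beyond its end, inside ARMC7, and ZEB1 9 against 1 in the gene body. The lower P300 regions with most reads were at CD44 and SLC16A5, a monocarboxylate transporter. CD44 had 20 reads against 36 over its promoter (1.56-fold lower, 0.879 to 2.84), and SLC16A5 had 8 against 22 over one end of its span (2.38-fold lower, 1.02 to 6.19). The intervals of the other 7 lower regions included 1, as did that of CD44.

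The 7 other lower P300 regions, at SMAD3, MYOF, S100A10, ZEB1 and ZEB2, held 1 to 4 reads after knockdown and 8 to 13 in the control. All 7 lay more than 3000 bp inside their genes. Of 30 members with a promoter window, 1 member's window was overlapped by a lower P300 region, that of CD44, and none by a higher one. Among protein-coding genes the shares were 0.347% and 0.360%.

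**Figure D4:**
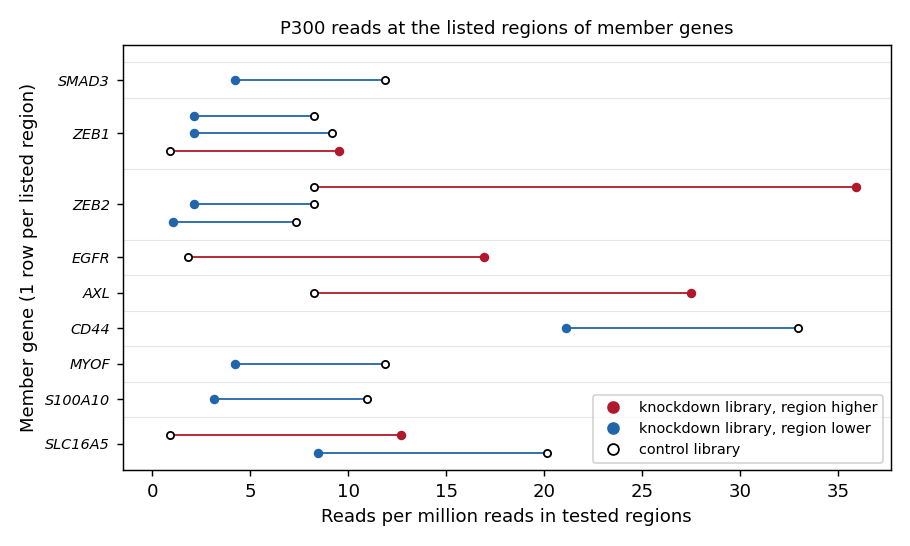
P300 reads, scaled to the reads in tested regions of each library, at the 14 listed regions of 9 member genes, 1 row per region. Filled points are the knockdown library (red where higher, blue where lower) and open points the control library; the widest gap is at the ZEB2 region with 34 against 9 reads, and no region was called.

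Regions of both antibodies overlapped at 2 of the 8 members that had regions of both. At ZEB2 they shared 399 bp near the 5′ end and both were higher, RBBP4 with 17 reads against 2 and P300 with 34 against 9. At CD44 they shared 442 bp at the start, where RBBP4 held 14 against 3 and P300 20 against 36. Neither CD44 region was called. The labels give each antibody a batch of its own, so differences between antibodies cannot be told apart from batch. Elsewhere the regions lay at separate positions. At SMAD3, MYOF and S100A10 the P300 region was lower and the RBBP4 regions higher, at AXL all were higher, at EGFR the P300 region and 3 of 4 RBBP4 regions were higher, and at ZEB1 the P300 regions went both ways. The 10 members TGFB1, TGFBR1, EPHA2, CAV2, S100A16, LGALS3, PLAU, PTGES, IFITM2 and IFITM3 had no listed region of either antibody.

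The flank of 3000 bp left out 6 RBBP4 regions that lay within 10000 bp of a member, and no P300 region. All 6 were higher and called. The nearest was 3074 bp from FOSL1, with 39 reads against 6, and a region 8229 bp from TGFBI held 53 against 3. Whether these 6 regions lie at other genes was not assessed, and no share over other genes was computed for such distances.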

How the data were processed

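The build in the submitters' processing notes was GRCh38. Those notes also name ChIPseeker 1.28.3, DiffBind 3.4.11, MACS2 2.2.7.1, Bowtie2 2.4.5, Trim Galore 0.6.7 and FastQC, with no role for each. RPKM values of both immunoprecipitated arms were deposited by the authors, in 1 table for each antibody. Beside them stand the authors' log2 fold change, mean log2 CPM, p-value and adjusted p-value, per the file headers. RPKM multiplied by the deposited width gave whole reads within 0.01 for 98.3% of RBBP4 and 99.4% of P300 regions. Reads of the others were taken from regions with the same deposited log2 values or solved. Among them were 2 RBBP4 member regions, at REST and at CAV1 (46 against 6 reads), and 1 P300 member region, at ZEB2 (34 against 9). For these the reads may not belong to the deposited width. Zero reads were set at 3 for folds. Gene spans and promoter windows came from RefSeq GRCh38.p14, where 34 of 34 members matched a span and 30 a window. Tested regions were counted from each adjusted p-value, its rank and the unadjusted one. The conditions were not tested, since each had a single library. Scripts used Python 3.11.15 with scipy 1.17.1 and were tested on simulated reads. Every member was counted, called RBBP4 regions were given with their reads, and up to 3 genes per list and direction, those with most reads, were eligible for naming. The members and lists were chosen with earlier results of these data known. Alternatives covered flanks, overlap, read minimum, scaling, pseudocount, call rule and dispersion.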

Additional observations from a re-analysis of the deposited data

How the results depend on the processing

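Of 64 alternative values for the counts and medians, 48 stayed within 1.5 times the reported count or inside the order-statistic interval of the median. All flank widths and the use of region centres kept 45 to 62 higher and 7 lower RBBP4 member regions. With at least 20 reads over both libraries, 34 higher and 0 lower RBBP4 regions remained (31 and 0 at least 2-fold). P300 kept 2 higher and 2 lower regions (2 and 1 at least 2-fold). The P300 median log2 ratio turned from -1.32 to 0.54 over those 4 regions, so its sign depended on the read minimum. The RBBP4 median of 2.11 became 1.67 with a pseudocount of 5 and 2.78 with the authors' log2 fold change, taken as whole-library scaling. Members with a called higher RBBP4 region numbered 13 at an adjusted p below 0.01 and 18 with a dispersion of 0.04, where CD44, FOSL1 and TGFB2 were lost. Members with a called lower region numbered 6 at an unadjusted p below 0.05, and 1 each at an adjusted p below 0.01, with a dispersion of 0.04 and within 3000 bp of an end. No share of protein-coding genes was computed at an adjusted p below 0.01 or with a dispersion of 0.04. Summed over all regions of the gene, the log2 fold was -0.27 for RAB27B RBBP4 and 0.00587 for SLC16A5 P300, which turned the direction of the RAB27B higher and the SLC16A5 lower region, since each gene had regions in both directions. The other 92 of 99 region folds stayed within their intervals and 5 moved. Of 128 list counts, 123 stayed within 1.5 times. No paired analysis was possible because each group had 1 library. Depth limits the lower RBBP4 and all P300 results, at 0 to 13 and 1 to 36 reads per library.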
